A study of Mus musculus with 2 samples.

Results

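The 35 genes described here encode nucleolar proteins that make ribosomes. They were taken as a list of gene names, and 35 of 35 were found among the 14366 genes of both tables. No value in these libraries was a criterion, but the list was chosen with earlier results of these data known. By role they comprise 3 genes of ribosomal RNA (rRNA) transcription, 4 nucleolar scaffold or helicase genes, 3 genes of the box C/D small nucleolar ribonucleoprotein (snoRNP), 3 of the box H/ACA snoRNP, 11 of small subunit assembly and 11 of large subunit assembly. Hematopoietic stem cells (HSC) were sorted by surface markers (lineage and CD48 negative, Sca-1, c-Kit and CD150 positive) from the pooled bone marrow of 8 wildtype C57/B6 mice aged 6 to 8 weeks. All cells were cultured with stem cell factor at 100 ng/ml and thrombopoietin at 50 ng/ml. Deferoxamine (DFO), an iron chelator, was present at 10 µM over 48 h in one culture, and the vehicle of the other was sterile water. Single-cell libraries of transcript 3′ ends were made from 20000 live cells of each culture. Each culture gave 1 library, so differences between cultures rest on unreplicated values and come without p-values. All intervals are exact 95% intervals and cover counting error only, not variation between cells, cultures or library preparations.

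The vehicle library held 8708 cells and 260938938 molecules, counted by unique molecular identifiers (UMIs), with a median of 27805.5 per cell. The DFO library held 9852 cells and 284326017 molecules, with a median of 27114 per cell. The libraries shared 24 cell barcodes. The median mitochondrial share was 3.88% in vehicle and 4.40% in DFO. Of the sort markers, Kit was at 35.3 CPM (molecules of the gene scaled to a library total of 1000000) in vehicle and 40.7 in DFO, Ly6a (Sca-1) at 83.9 and 111, and Slamf1 (CD150) at 14.4 and 11.8. Cd48, whose protein was gated out, was at 103 and 108 CPM. All 20 listed HSC markers were in the tables, 1 of them below 1 CPM, with a sum of 723 CPM in vehicle and 743 in DFO. The summed level of 12 megakaryocyte markers was 2160 CPM in vehicle and 1143 in DFO. Values within clusters and at equal cluster shares are therefore given below.

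The nucleolus forms around active rRNA genes, where RNA polymerase I makes a long precursor transcript. SnoRNPs modify this precursor (box C/D particles methylate it, box H/ACA particles pseudouridylate it), and assembly factors cut and fold it into the small and the large ribosomal subunit. Many genes of this pathway are known targets of the transcription factor Myc, which binds the E-box sequence CACGTG with its partner Max. In HSC, protein synthesis is known to be held low and to increase with differentiation.

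Since Myc binds E-boxes, the RefSeq promoter windows (GRCm38.p6, 250 bases before to 50 after each gene's annotated start) were searched for CACGTG, which reads the same on both strands. Windows were present for 29 of the 35 genes, and 7 of these 29 genes (24.1%) held the motif. The motif was in 7.15% of the 32851 windows searched and in 11.6% of the 10775 genes of the tables that have a searched window. The related 6 bases CACGCG, searched as CACGCG or CGCGTG, were in 10 of the 29 genes (34.5%) and in 19.3% of the genes of the tables. The 7 genes with CACGTG are shown so that the position and flanks of the motif can be compared. Up to 12 bases on each side are given 5′ to 3′ on the gene's strand, with the motif in capitals.
Nop2: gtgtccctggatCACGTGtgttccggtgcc
Pes1: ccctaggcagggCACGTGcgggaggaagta
Wdr43: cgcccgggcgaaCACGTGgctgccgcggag
Ltv1: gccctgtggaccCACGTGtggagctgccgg
Utp20: cggcactaactaCACGTGaggaaaa
Pno1: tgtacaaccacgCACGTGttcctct
Mybbp1a: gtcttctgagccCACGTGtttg
The stretches lie at chr6:125131811-125131840 (Nop2, plus strand), chr11:3963965-3963994 (Pes1, plus), chr17:71616220-71616249 (Wdr43, plus), chr10:13193092-13193121 (Ltv1, minus), chr10:88826765-88826789 (Utp20, minus), chr11:17211540-17211564 (Pno1, minus) and chr11:72441355-72441376 (Mybbp1a, plus). In Nop2 the motif begins 60 bases before the start. In the other 6 genes it begins after the start, at base 3 in Pes1, 18 in Wdr43, 29 in Ltv1, 38 in Utp20 and in Pno1 and 41 in Mybbp1a. Bases are counted from 1 at the start that defines the window, and other annotations can differ. In GENCODE M21, Wdr43 begins at chr17:71615895, before its window, and Mybbp1a at chr11:72441355, the first base of its stretch. The windows of Nop2 and Mybbp1a were not matched in a check against transcript sequences. A match of letters does not show that a factor binds there.

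Transcripts of the nucleolar factors took a larger share of all molecules in the DFO culture. Their summed level was 9703 CPM (0.970% of molecules) in vehicle and 10430 CPM (1.04%) in DFO. Of the 35 genes, 34 were higher in DFO, beside 57.9% of the 8886 genes that averaged at least 5 CPM. All 35 passed that minimum, from Rrp12 at a mean of 16.9 CPM to Npm1 at 4104. With a difference defined as log2((DFO CPM + 1)/(vehicle CPM + 1)), 22 of the 35 were higher by 0.1 or more (19.2% of all genes) and 0 lower by 0.1 or more (14.0% of all genes). The counting intervals of the 2 libraries did not overlap, with DFO higher, for 32 of the 35 (32.7% of all genes), and 0 were apart in the other direction (21.4%). The median difference was 0.13 over the 35 genes and 0.019 over all genes. How far 2 cultures treated alike would differ cannot be told from 1 library of each. UMIs of 3′ ends are not divided by transcript length, so levels are compared between cells and not between genes.

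**Figure D1:**
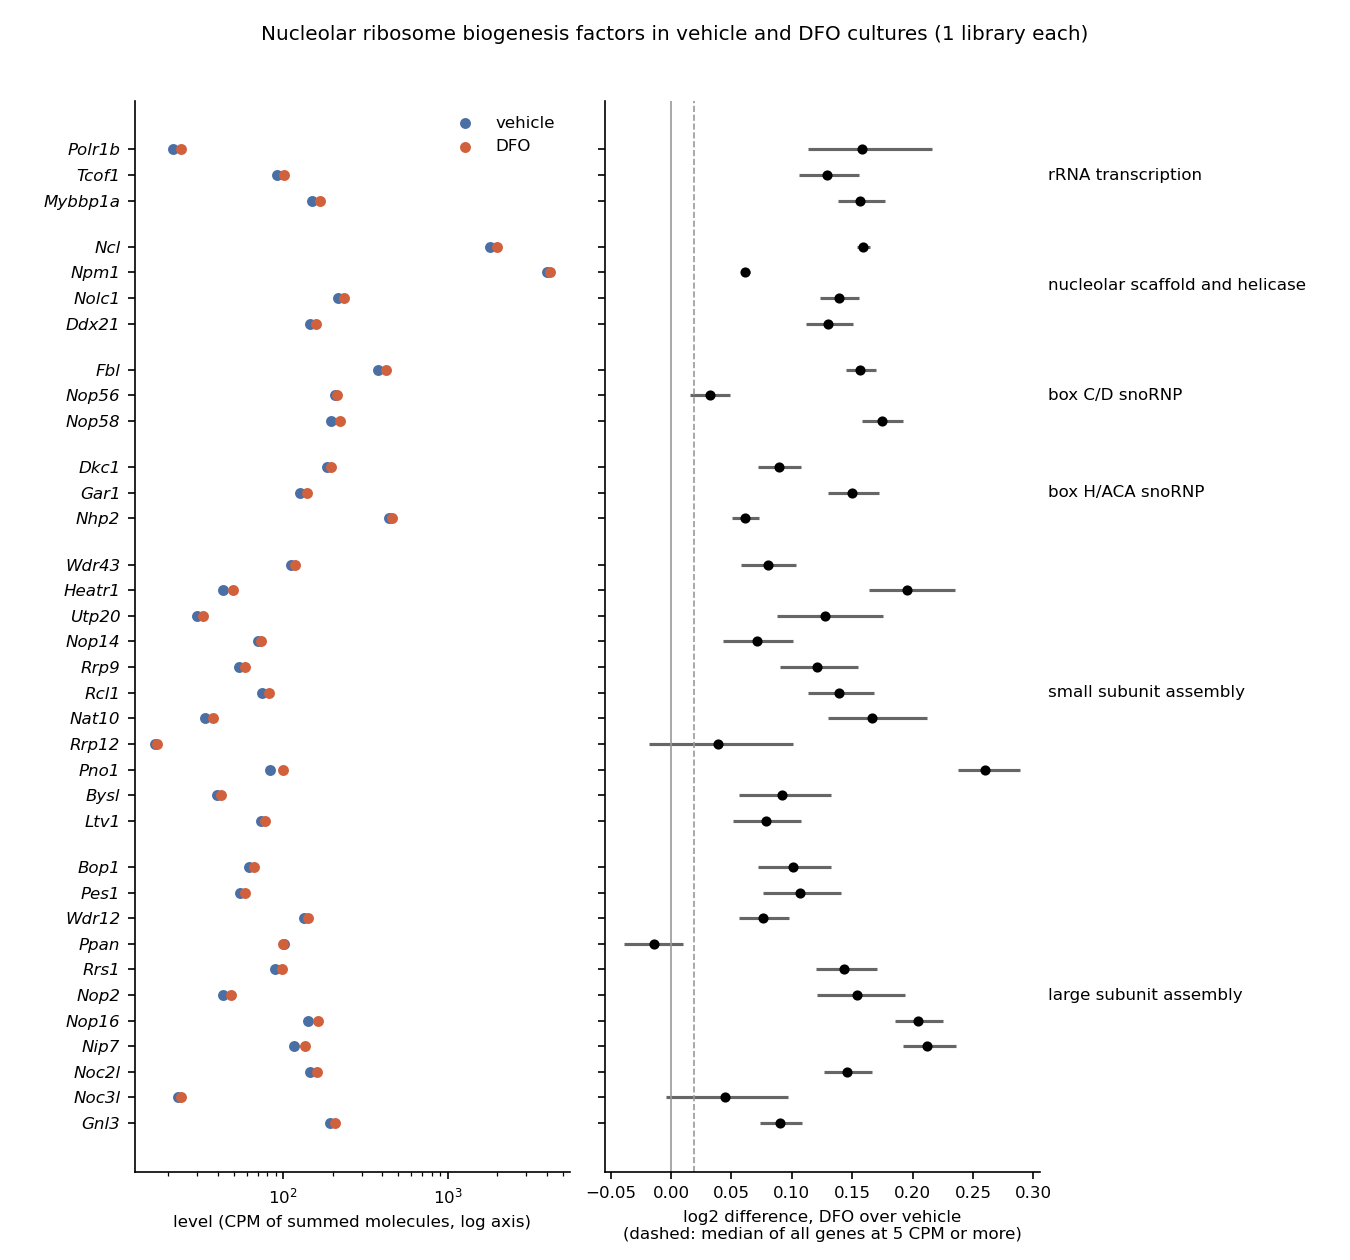
Levels of the 35 genes (CPM of summed molecules, log axis; blue vehicle, orange DFO) and their log2 differences with exact 95% counting intervals, by role. All points but that of Ppan lie to the right of 0, and the dashed line marks the median of all genes at 0.019.

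In single cells the shift was spread over the whole distribution. In cells thinned to 10000 UMIs (8357 vehicle and 9419 DFO cells), the median cell had 92 UMIs of the nucleolar factors in vehicle and 101 in DFO. The 5th and 95th percentiles were 56 and 135 UMIs in vehicle and 61 and 143 in DFO. Both tails of the DFO distribution were thus shifted the same way as its middle, and the libraries overlapped over most of their range.

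The 3 genes of rRNA transcription were all higher in DFO. Polr1b, a large subunit of RNA polymerase I, was at 21.4 CPM in vehicle and 24.0 in DFO, a log2 difference of 0.16 (interval of the ratio of CPM 0.11 to 0.22). Tcof1, whose product treacle supports transcription of rRNA genes, was at 92.5 and 101 CPM, a difference of 0.13. Mybbp1a, a nucleolar protein linked to rRNA synthesis and processing, was at 150.4 and 168 CPM, a difference of 0.16.

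The scaffold and helicase group holds Ncl and Npm1, which together made up 59.9% of the vehicle molecules of the 35 genes. Ncl encodes nucleolin, which binds the rRNA precursor, and was at 1796 CPM in vehicle and 2006 in DFO, a difference of 0.16 (interval 0.15 to 0.16). Npm1 encodes nucleophosmin, a nucleolar chaperone, and was at 4016 and 4192 CPM, a difference of 0.062 (interval 0.058 to 0.065). The Npm1 difference was thus smaller than that of Ncl, although both intervals exclude 0. Nolc1, a chaperone of snoRNPs, was at 214 and 236 CPM, a difference of 0.14. The helicase gene Ddx21 was at 146 and 159.6 CPM, a difference of 0.13.

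The box C/D proteins did not differ alike. Fbl, the methyltransferase fibrillarin, was at 377 CPM in vehicle and 421 in DFO, a difference of 0.16. Nop58, a core protein of the same particle, was at 196 and 221 CPM, a difference of 0.17 (interval 0.16 to 0.19). Its partner Nop56 was at 207 and 212 CPM, a difference of 0.032 (interval 0.016 to 0.049). Fbl and Nop58 thus lay above the median of the 35 genes, and Nop56 lay near the median of all genes. Among the box H/ACA proteins, Dkc1, the pseudouridine synthase dyskerin, was at 184 and 196 CPM, a difference of 0.089. Gar1, a core protein, was at 127 and 141 CPM, a difference of 0.15. Nhp2, the RNA-binding core protein, was at 442 and 462 CPM, a difference of 0.062.

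All 11 genes of small subunit assembly were higher in DFO, with a median difference of 0.12. The largest difference of the 35 genes was that of Pno1, an RNA-binding factor of late small subunit precursors, at 82.9 CPM in vehicle and 99.5 in DFO (0.26, interval 0.24 to 0.29). Heatr1, a factor that acts with nascent precursor rRNA, was at 43.2 and 49.5 CPM (0.20), and Wdr43, of the same subcomplex, at 111 and 118 CPM (0.080). Nat10, which acetylates the small subunit rRNA, was at 33.5 and 37.7 CPM (0.17). Pno1, Heatr1 and Nat10 were the small subunit genes with the highest differences. Rcl1, a processome protein, was at 74.4 and 82.0 CPM (0.14). Utp20 was at 29.8 and 32.7 CPM (0.13). Rrp9, a protein of the U3 snoRNP, was at 54.0 and 58.7 CPM (0.12). These 3 processome genes lay near the median of the group. Bysl was at 39.4 and 42.1 CPM (0.092), and Ltv1 at 73.0 and 77.2 CPM (0.079), both factors of late precursors. Nop14 was at 69.97 and 73.5 CPM (0.071). The lowest of the group was Rrp12, a factor of subunit export, at 16.6 and 17.1 CPM (0.039, interval -0.018 to 0.10), whose libraries' intervals overlapped.

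Of the 11 genes of large subunit assembly 10 were higher in DFO, with a median difference of 0.11. Nip7 was at 117 CPM in vehicle and 136 in DFO (0.21), and Nop16 at 141 and 163 CPM (0.20), both factors of large subunit precursors and the highest of the group. Nop2, an rRNA methyltransferase, was at 43.1 and 48.1 CPM (0.15). Noc2l was at 145 and 161 CPM (0.15), and Rrs1, which helps to bring in the 5S particle, at 89.7 and 99.1 CPM (0.14). The complex of Pes1, Bop1 and Wdr12, which acts in large subunit maturation, showed differences of 0.11 (54.7 and 59.0 CPM), 0.10 (62.1 and 66.7 CPM) and 0.076 (134 and 141 CPM). The counting intervals of these 3 differences overlapped. Gnl3, the GTPase nucleostemin, was at 194 and 207 CPM (0.090). Noc3l was at 23.1 and 23.8 CPM (0.045, interval -0.0038 to 0.097). Ppan was the single gene of the 35 not higher in DFO, at 100.9 CPM in vehicle and 99.9 in DFO (-0.014, interval -0.039 to 0.0099). For Noc3l and Ppan the intervals of the libraries overlapped.

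Other genes of the pathway, 133 from a list of RNA polymerase I factors, further assembly factors, the exosome and further H/ACA proteins, differed in the same direction with a smaller median of 0.083. Of these, 116 were higher in DFO, 52 by 0.1 or more, and 2 were lower by 0.1 or more, beside the 57.9%, 19.2% and 14.0% of all genes given above. The 3 highest were Bccip at 74.9 CPM in vehicle and 93.4 in DFO (0.32), Senp3 at 10.2 and 12.4 CPM (0.25) and Noc4l at 84.4 and 100.2 CPM (0.24). The 3 lowest were Nsa2 at 241 and 220.1 CPM (-0.13), Riok3 at 46.1 and 42.5 CPM (-0.11) and Wdr74 at 14.9 and 14.0 CPM (-0.089). The ribosomal protein genes, which encode the product that the nucleolar factors assemble, went the other way. Of 86 ribosomal protein genes, 24 were higher in DFO and 35 were lower by 0.1 or more, with a median of -0.070. Their sum was 25.6% of molecules in vehicle and 24.1% in DFO. Since CPM are shares of a total, the differences of the 35 genes were recomputed with totals that leave out ribosomal protein and mitochondrially encoded genes. Their median was then 0.11, with 34 higher in DFO, while the median of all genes was -0.00023, with 49.9% higher.

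Myc itself was at 91.9 CPM in vehicle (interval 90.8 to 93.1) and 107.5 CPM in DFO (106 to 109), a log2 difference of 0.22. The relation of the nucleolar factors to Myc was therefore described within each library, over cells with 0, 1, 2, 3 to 4 and 5 or more Myc UMIs among 10000. In vehicle these groups held 3966, 2366, 1153, 721 and 151 cells, and in DFO 3975, 2713, 1493, 1020 and 218 cells. The summed level of the 35 genes was 9263 CPM in vehicle cells without a Myc UMI and 9378, 9488, 9445 and 9685 CPM in the following groups. In DFO the sums were 10041, 10124, 10201, 10140.4 and 10284 CPM. Cells with the most Myc thus had slightly higher sums in each library, and every DFO group lay above every vehicle group.

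**Figure D2:**
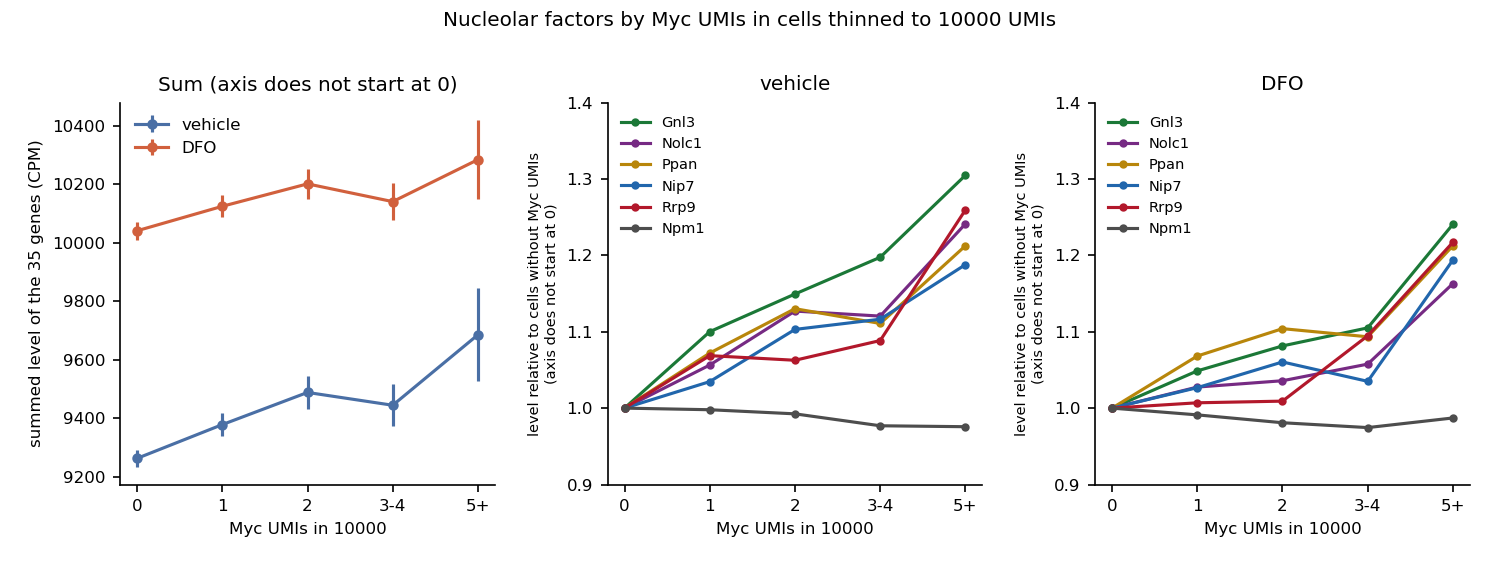
Summed level of the 35 genes (CPM, exact 95% Poisson intervals) and levels of 6 of them relative to cells without a Myc UMI, by Myc UMIs in cells thinned to 10000 UMIs. Sums go from 9263 to 9685 CPM in vehicle and from 10041 to 10284 CPM in DFO, and Npm1 stays at or below its starting level while Gnl3 goes up.

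Compared between cells with 5 or more and with 0 Myc UMIs, 27 of the 35 genes were higher in vehicle (50.2% of all genes) and 26 in DFO (50.4%). A log2 ratio of 0.25 or more was reached by 11 genes in vehicle (17.7% of all genes) and 6 in DFO (14.9%). The share in DFO was thus near that of all genes. The median ratio was 0.15 in vehicle and 0.082 in DFO, against 0.00092 and 0.0023 over all genes. The counting interval lay above 0 for 13 genes in vehicle (7.24%) and 8 in DFO (8.02%), and for 5 in both (2.67%), namely Gnl3, Ppan, Nolc1, Rrp9 and Nip7. A ratio of 0.25 or more in both libraries was found for 4 genes (6.15% of all genes), Gnl3, Ppan, Rrp9 and Nop2. The level was higher at each successive step for 6 genes in vehicle (5.22%) and 5 in DFO (4.94%). Gnl3 went from 174 to 192, 200.1, 208 and 227 CPM over the groups in vehicle and from 190.4 to 199.7, 206, 210.4 and 236 CPM in DFO. It was higher at each step in both libraries, with ratios of 0.38 and 0.31. Ppan, the gene not higher in the DFO culture, went from 93.4 to 113 CPM in vehicle and from 91.5 to 111 CPM in DFO, a ratio of 0.28 in each. Nolc1 went from 191 to 237 CPM (0.31) in vehicle and from 218 to 254 CPM (0.22) in DFO. Nip7 had ratios of 0.246 and 0.254, and Rrp9 of 0.33 and 0.28.

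Several genes differed between the libraries or showed no such order. Rrs1 had a ratio of 0.50 in vehicle (82.9 to 118 CPM) and of 0.025 in DFO (96.5 to 98.2 CPM), and Polr1b one of 0.56 (20.3 to 30.5 CPM) and 0.17 (22.3 to 25.2 CPM). Whether these ratios differ between cultures was not tested. Npm1 had ratios of -0.036 and -0.019 and Fbl of -0.097 and 0.038. Ncl had ratios of 0.11 (interval 0.053 to 0.16) in vehicle, from 1658 to 1788 CPM, and 0.0018 in DFO. Rrp12 had ratios of 0.033 and -0.31, the latter with an interval of -0.96 to 0.23. A ratio of -0.25 or less was found for 0 of the 35 genes in vehicle (18.3% of all genes). In DFO it was found for 1, Rrp12 (14.5% of all genes). Bop1 and Nat10 were lower in cells with the most Myc in both libraries (-0.15 and -0.16 for Bop1, -0.16 and -0.20 for Nat10, with intervals that include 0). By role, the large subunit factors had the highest median in vehicle (0.28, and 0.15 in DFO) and the H/ACA proteins the lowest (0.026 and 0.043). Across cells, Spearman's rho between Myc UMIs and summed UMIs of the 35 genes was 0.035 over 8357 vehicle cells and 0.020 over 9419 DFO cells, where cells share library and thinned depth. The 7 genes with CACGTG in the promoter window had median ratios of 0.11 in vehicle and 0.16 in DFO, and the 22 without it 0.22 and 0.13. Their median differences between cultures were 0.13 and 0.13.

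Other properties moved with the Myc groups. From 0 to 5 or more Myc UMIs, the share of cells called in S phase went from 28.1% to 62.3% in vehicle and from 29.8% to 63.3% in DFO, and the share called in G2/M from 64.7% to 26.5% and from 66.2% to 23.9%. The summed megakaryocyte markers went from 2094 to 1157 CPM in vehicle and from 1109 to 596 CPM in DFO. The share of cells in the HSC-like cluster described below went from 13.5% to 31.1% in vehicle and from 11.5% to 31.7% in DFO. Within equal cluster shares the median ratio was 0.25 in vehicle and 0.20 in DFO, with few cells of 5 or more Myc UMIs in some clusters. The megakaryocyte-like cluster held 7.95% of the 151 such cells in vehicle and 2.29% of the 218 in DFO. Cluster 6 held 0% in each library. With cells thinned to 5000 UMIs, 10 vehicle and 16 DFO cells had 5 or more Myc UMIs, and the medians were 0.065 and -0.068, against -0.17 and -0.098 over all genes. At equal phase shares 6 genes in vehicle reached 0.25, a share near the 17.6% of all genes, and 10 in DFO (16.3%), with medians of 0.15 and 0.14. At matched Myc UMIs the DFO cells had the higher levels of the nucleolar factors. Few Myc UMIs were counted per cell, so equal UMIs do not mean equal Myc levels. Whether the difference between cultures comes with that of Myc was not tested. The median difference between cultures was 0.15, 0.11, 0.13, 0.12 and 0.091 from 0 to 5 or more Myc UMIs, with 33, 31, 32, 29 and 24 of 35 genes higher in DFO beside 56.5%, 54.9%, 55.2%, 54.3% and 53.1% of all genes.

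Lineage state was described over 8 clusters, made without the 35 genes, the other pathway genes, Myc, ribosomal protein, mitochondrial, sex-linked and cell cycle genes. Cluster 2 was called HSC-like from Sult1a1 among its 10 leading genes, which also include Pdcd1, Ccl4 and Ltb. Cluster 3 was called megakaryocyte-like from Pf4 and Treml1. Cluster 7 was called erythroid-like from Aqp1 and Klf1, with the mast cell gene Cpa3 also among its leading genes. The others stay unnamed. Cluster 0 is led by mitosis genes such as Nusap1, and cluster 6 is shallow, with a median of 6931 UMIs per cell.

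The nucleolar factors were lowest in the HSC-like, erythroid-like and shallow clusters. In vehicle their sum was 8204 CPM in the HSC-like cluster (1490 cells), 7321 in the erythroid-like one (492 cells) and 6446 in cluster 6 (414 cells). It was 10556 CPM in the megakaryocyte-like cluster (1688 cells), 10683 in cluster 1, 10466 in cluster 5, 9641 in cluster 0 and 9141 in cluster 4. In DFO the HSC-like cluster was at 8448 CPM (1426 cells), the erythroid-like one at 7909.8 CPM (276 cells), cluster 6 at 6388 and the megakaryocyte-like one at 11548 CPM (1214 cells), with clusters 0, 1, 4 and 5 between 10200.2 and 11225 CPM. High sums were thus shared by the megakaryocyte-like cluster and by clusters without a megakaryocyte name. Myc ran differently, with its highest level in the HSC-like cluster (133 CPM in vehicle and 149 in DFO) and a low level in the megakaryocyte-like one (67.0 and 87.5 CPM).

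**Figure D3:**
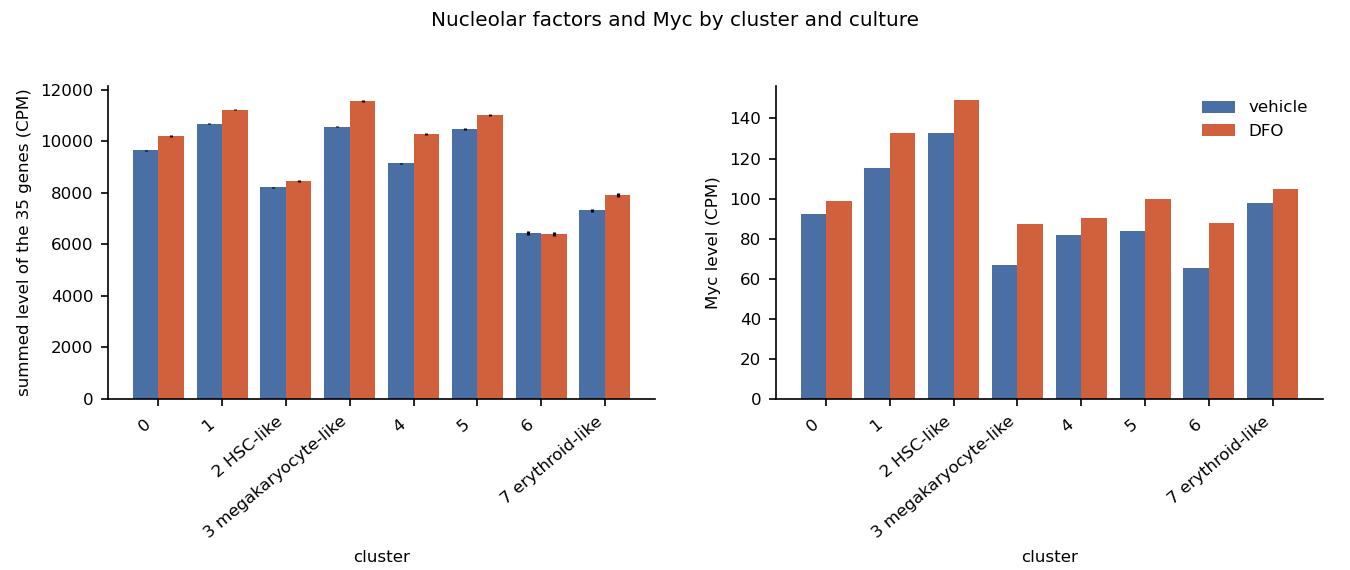
Summed level of the 35 genes and level of Myc (CPM) by cluster in vehicle (blue) and DFO (orange); error bars on the sums are exact 95% Poisson intervals. The HSC-like cluster has the highest Myc level, at 133 and 149 CPM, and a low sum, at 8204 and 8448 CPM.

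All 35 genes were higher in the megakaryocyte-like than in the HSC-like cluster, in vehicle (52.3% of all genes) and in DFO (54.0%). Of them, 29 in vehicle (29.4%) and 30 in DFO (31.0%) were higher by a log2 ratio of 0.25 or more. The median ratios were 0.55 and 0.58, against 0.031 and 0.044 over all genes. Bysl had the highest ratio in each library (1.15 and 1.11). High ratios were also those of Rrp12 (0.97 and 0.95), Bop1 (0.87 and 1.00), Rrp9 (0.84 and 0.92) and Nat10 (0.81 and 0.95). Among the low ones were those of Rcl1 (0.045 and 0.17), Fbl (0.053 and 0.097), Wdr12 (0.059 and 0.24) and Npm1 (0.10 and 0.21). Within the box H/ACA particle, Nhp2 (0.81 and 0.82) stood apart from Gar1 (0.21 and 0.18). In the same comparison Myc had ratios of -0.98 and -0.76, and ribosomal protein genes had medians of -0.16 and -0.18. Between the erythroid-like and the HSC-like cluster the medians were -0.058 and -0.035, with 11 and 13 of 35 genes higher beside 45.7% and 45.0% of all genes. Between the megakaryocyte-like and the erythroid-like cluster they were 0.55 and 0.60, with 34 and 35 genes higher (53.1% and 56.3% of all genes), 32 and 32 by 0.25 or more (28.3% and 30.6%) and 0 lower by 0.25 or more (25.4% and 22.6%).

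The sum of the nucleolar factors did not go up with megakaryocyte markers across cells. Spearman's rho between the 2 sums was -0.098 over 8357 vehicle cells and -0.071 over 9419 DFO cells. Over 4 equal groups of cells from the fewest to the most megakaryocyte marker UMIs, the sum of the nucleolar factors was 9816, 9405, 8908 and 9272 CPM in vehicle and 10433, 10137, 9885 and 9971 CPM in DFO. Between the outer groups the median ratio of the 35 genes was 0.0037 in vehicle and -0.0045 in DFO, against -0.018 and -0.0082 over all genes, and 0 genes reached 0.25 in either library (15.6% and 12.3% of all genes). The cells with the fewest markers include 23.9% HSC-like cells in vehicle and 16.6% in DFO, and 0.096% and 0.042% erythroid-like cells. Those with the most include 66.0% and 44.9% megakaryocyte-like cells, 11.9% and 8.96% erythroid-like cells and 2.30% and 6.33% HSC-like cells. Whether the mix of clusters bears on these sums was not tested. In broader clusters (resolution 0.25) the medians were 0.29 and 0.28. The share of cells called in G1 was 32.9% in the HSC-like and 2.22% in the megakaryocyte-like cluster in vehicle, and 27.1% and 1.34% in DFO. Median UMIs per cell, over both libraries, were 20821 and 33014.5. At equal phase shares the medians were 0.59 and 0.59.

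Within clusters the DFO cells were mostly the higher ones. The median difference over the 35 genes was 0.12, 0.072, 0.072, 0.16, 0.19, 0.11, 0.090 and 0.14 in clusters 0 to 7. The genes higher in DFO numbered 33, 30, 32, 35, 35, 30, 28 and 29 of 35, beside 54.8%, 59.1%, 55.4%, 60.5%, 54.2%, 51.6%, 56.6% and 50.2% of all genes. Cluster 4 and the megakaryocyte-like cluster had all 35 genes higher. In the shallow cluster 6 the sum was slightly lower in DFO (6446 and 6388 CPM), with overlapping intervals. Of the 35 genes, 21 were higher in DFO in all 8 clusters (14.9% of all genes), among them Pno1 (0.18 to 0.37), Nip7 (0.15 to 0.35), Nop16 (0.12 to 0.30), Nop58 (0.11 to 0.30) and Fbl (0.090 to 0.22). Ppan was higher in 3 clusters and Noc3l in 4. The counting interval lay above 0 in one cluster and below 0 in another for 3 genes (6.99% of all genes), Npm1, Nop56 and Ppan. Weighting clusters equally in both libraries gave a median of 0.13 with 34 genes higher. Over all genes the median was then 0.015, with 56.8% higher.

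**Figure D4:**
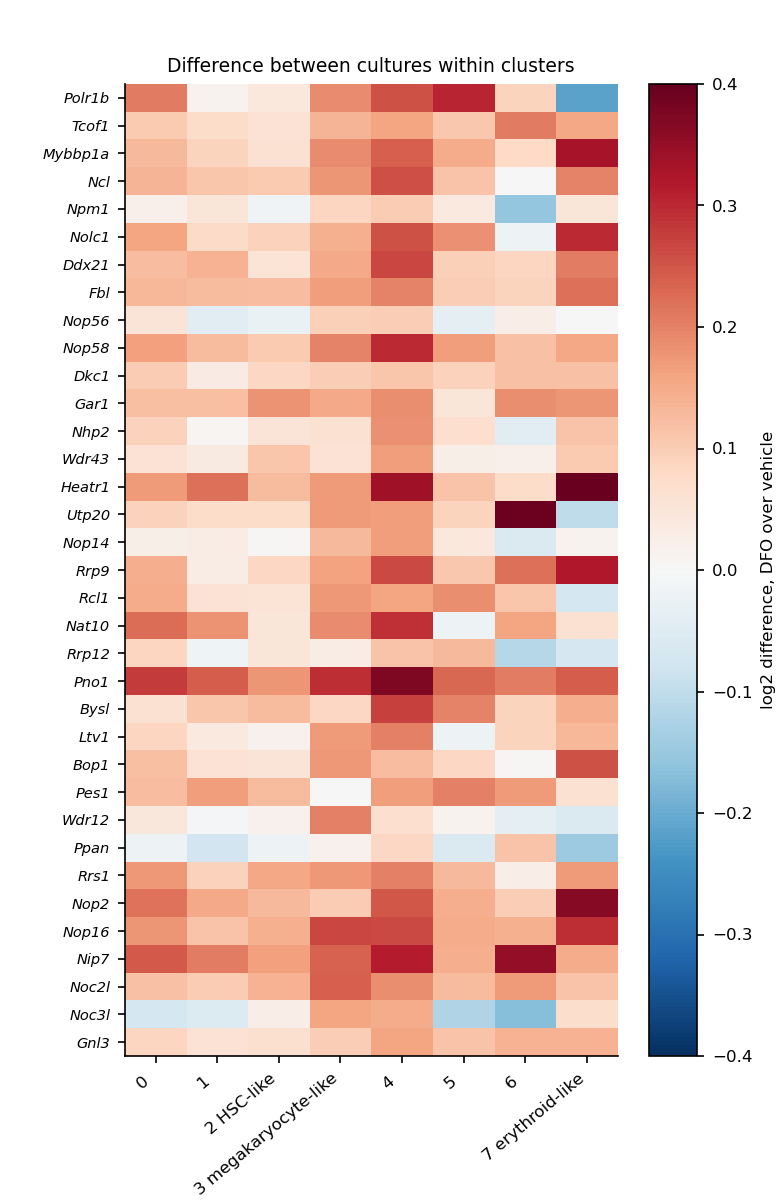
Log2 difference of each of the 35 genes between DFO and vehicle (rows) within each of 8 clusters (columns; red, DFO higher; blue, vehicle higher; the scale ends at -0.4 and 0.4). Rows such as Pno1, Nip7 and Nop16 are red throughout, and Ppan and Noc3l are mixed.

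The summed level of the nucleolar factors differed more between groups by depth or cycle phase than between groups by Myc UMIs. Myc groups rest on few UMIs of a single gene per cell. The strengths of these relations can therefore not be ranked. In vehicle the sum over the 35 genes was 6986 CPM in cells called G1 (700 cells), 9722 in S (2939 cells) and 9469 in G2/M (4718 cells). In DFO it was 7453, 10209 and 10279.9 CPM (489, 3508 and 5422 cells). All 35 genes were higher in S than in G1 in vehicle (49.4% of all genes) and in DFO (49.6%), with median ratios of 0.61 and 0.51. All 35 were also higher in G2/M than in G1 (54.1% and 54.0%), with medians of 0.51 and 0.58. Nolc1 had S to G1 ratios of 1.12 and 1.00, Rrp12 of 1.02 and 1.01 and Ncl of 0.89 and 0.73. Npm1 (0.24 and 0.28), Fbl (0.25 and 0.24) and Wdr12 (0.12 and 0.14) were among the flattest. Within phases the median difference between cultures was 0.11 in G1, 0.073 in S and 0.16 in G2/M, with 28, 29 and 33 of 35 genes higher in DFO beside 54.9%, 55.3% and 56.1% of all genes.

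By 4 equal groups of total UMIs per cell, after thinning all cells to the same 10000 UMIs, the sum went from 7322 to 9104, 10059 and 10589 CPM in vehicle and from 8148 to 9869.6, 10811 and 11255 CPM in DFO. Ribosomal protein sums went the other way, from 279101 to 247248 CPM in vehicle and from 257407 to 234600.4 CPM in DFO. Across cells, rho between total UMIs and the thinned sum of the 35 genes was 0.50 in vehicle and 0.46 in DFO, and between that sum and ribosomal protein UMIs -0.57 in both libraries. The last value joins 2 parts of one fixed total of 10000 UMIs. Of single genes, Ncl had the highest rho with the other 34 (0.66 and 0.65).

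Both sexes were present among the pooled mice, which gives a comparison within each library of cells from different animals. Among cells called female (4751 vehicle, 5251 DFO) the median difference between cultures was 0.13, with 34 of 35 genes higher in DFO beside 57.1% of all genes. Among cells called male (2767 and 3266) it was 0.13, with 34 of 35 higher beside 57.2%. These cells shared their culture and library, so this is no replicate of the treatment.

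Overlaps could touch single genes. In the GENCODE M21 annotation, 5 of the 35 genes share exon sequence with another gene on the same strand. They are Ncl, Nop56, Nop58, Ppan and Gnl3. With a gene on the other strand 15 share exon sequence, among them Bysl with Ccnd3, Gnl3 with Pbrm1, Pno1 with Wdr92 and Heatr1 with Lgals8. The sources used here do not state whether counting used strand. Npm1 has 6 other annotated genes that match 100 or more of the last 500 bases of one of its transcripts at 95% identity or more. Its level is uncertain to the extent that reads were split or left out. Transcript ends of Nip7 and Polr1b hold stretches that match 51 and 46 other genes.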

How the data were processed

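For each library the authors deposited a table of genes by cells with natural log values. Per the values, each is the natural log of 1 plus 27408 times the cell's molecules of a gene over its total, and whole molecules came back within 0.05 for 100% of nonzero values. The submitters' processing notes name mm10, FastQC 0.11.9, Trim Galore 0.6.5 and Cell Ranger 3.0.2, without roles. Molecules were summed over all deposited cells and scaled to CPM (Python 3.11.15, numpy 2.4.6, scipy 1.17.1, scanpy 1.11.5). With 1 library per group no count model was used.

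Genes that averaged at least 5 CPM formed the background. Thinning drew 10000 molecules per cell, which left out 351 vehicle and 433 DFO cells. Clusters came from 2000 variable genes, 30 principal components, 15 neighbours and Leiden at resolution 0.5 (leidenalg 0.10.2), and were named from markers among 10 leading genes. Phase was scored with scanpy. Doublets were not removed except in an alternative. Cells with 5 or more Xist molecules and no Y-linked ones were called female, and with at most 1 and with 2 or more of Y-linked genes male. The sums, differences and thinning were tested on simulated data.

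The 35 genes and the lists were chosen with earlier results of these data known. Named are all 35, Myc, markers that name clusters, and the 3 highest and 3 lowest other pathway genes at 10 CPM or more in a library; other genes were named after their values were seen.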

Additional observations from a re-analysis of the deposited data

Results flagged for a closer look

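For 3 of the 35 genes the counting interval of the difference between cultures lay above 0 in one cluster and below 0 in another. This share is near the 6.99% of all genes. Npm1 was higher in DFO by a log2 difference of 0.10 in cluster 4 (interval 0.091 to 0.11). It was lower in the shallow cluster 6 (-0.16, interval -0.20 to -0.11). In the HSC-like cluster it was slightly lower (-0.016, interval -0.027 to -0.0038), and it was higher in 6 of the 8 clusters. Nop56 differed by 0.097 in cluster 4 and by -0.044 in cluster 1, and Ppan by 0.083 in cluster 4 and by -0.076 in cluster 1. Over 35 genes and 8 clusters some intervals near 0 can exclude it by counting error alone. The interval of Nop56 in cluster 1 was of this kind (-0.084 to -0.0053). The Npm1 intervals in clusters 4 and 6 lay further from 0. Whether the clusters differ was not tested.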

How the results depend on the processing

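No paired analysis was possible because each group has 1 library. Of the alternatives, equal shares of Myc groups, equal shares of 4 total UMI groups and leaving out likely doublets were chosen after seeing the data. Of 35 genes, 33 were higher in DFO under every alternative run, Ppan was lower under each, and Rrp12 ranged from -0.046 to 0.075. Under single alternatives, 49.9% to 60.3% of all genes were higher in DFO. The share of all genes higher under every alternative was not counted. The median difference between cultures (0.13) was 0.14 with the mean of cells, with thinned cells and at equal Myc shares, 0.13 in female and in male cells, 0.12 at equal phase shares, and 0.11 with a pseudocount of 10 CPM, with median of ratios scaling and with totals lacking mitochondrial and ribosomal protein genes. For the 133 other pathway genes the median (0.083) was 0.091 with the mean of cells, 0.086 and 0.067 with pseudocounts of 0.1 and 10 CPM, 0.063 with median of ratios scaling, 0.065 with the smaller totals, 0.079 at a minimum of 20 CPM, 0.096 with thinned cells, 0.086 at equal phase shares, 0.073 in male cells, 0.093 at equal Myc shares and 0.087 without likely doublets. The relation to Myc depended on the setting. Shares in brackets are those of all genes at 0.25 or more. In vehicle the median ratio (0.15, 11 genes at 0.25 or more) was 0.065 in cells thinned to 5000 UMIs, where that of all genes was -0.17. It was 0.19 between the top and bottom of 5 equal groups of cells by Myc CPM, 0.25 with 18 genes (22.0%) at equal cluster shares and 0.26 with 18 genes (17.6%) at equal shares of UMI groups. At equal phase shares 6 genes (17.6%) reached 0.25, a share near that of all genes. In DFO (0.082, 6 genes) the median was -0.068 with 10 genes (32.6%) at 5000 UMIs, where 16 cells had 5 or more Myc UMIs and the median of all genes was -0.098. It was 0.10 with 2 genes (4.14%) between those outer groups, 0.20 with 12 genes (15.1%) at equal cluster shares, 0.14 with 10 genes (16.3%) at equal phase shares and 0.11 at equal UMI groups. With a pseudocount of 10 CPM 3 genes (7.38%) reached 0.25. In DFO the shares at the main setting, at 5000 UMIs, between the outer groups and at this pseudocount were near those of all genes. The ratio of megakaryocyte-like to HSC-like cells (0.55 in vehicle, 0.58 in DFO) was 0.29 and 0.28 (18 genes at 0.25 or more in DFO, 19.1%) at resolution 0.25, 0.44 and 0.50 at resolution 1, 0.59 and 0.59 at equal phase shares, 0.58 and 0.62 with thinned cells and 0.61 and 0.66 at equal Myc shares. Between the outer of 4 equal groups by megakaryocyte marker UMIs it was 0.0037 in vehicle and -0.0045 in DFO, against -0.018 and -0.0082 over all genes, with 0 genes at 0.25 or more in either (15.6% and 12.3%). The ratio of G2/M to G1 was 0.56 in vehicle and 0.52 in DFO without thinning. The cause of these shifts was not tested. Counting error limits most the genes with the lowest levels and the groups with the most Myc.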

Other observations

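The 133 other genes of the pathway followed the same order over cell classes with smaller medians. Between the megakaryocyte-like and the HSC-like cluster their median log2 ratio was 0.37 in vehicle and 0.44 in DFO. Of the 133, 117 and 123 were higher, beside 52.3% and 54.0% of all genes. Between cells with 5 or more and with 0 Myc UMIs the median was 0.085 and 0.051. Here 93 and 84 of 133 were higher, beside 50.2% and 50.4% of all genes.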
